A study of Mus musculus with 30 samples.

Results

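The immediate early genes described here are 40 serum- and stress-inducible genes, listed by name, out of 30205 genes quantified by RNA sequencing in cultured mouse muscle cells. They comprise 9 subunits or close relatives of the AP-1 transcription factor, 4 Egr zinc finger factors, 3 Nr4a nuclear receptors, 4 Klf zinc finger factors, 6 Ier and other nuclear response factors, 5 MAP kinase phosphatases, 6 growth arrest and RNA decay factors and 3 cytoplasmic effectors. The rule names the genes and uses no measured value, but the members were chosen with earlier results of these data known. Of the 40 genes, 39 passed the filter on low counts in each fit. The exception was Egr4, an Egr family zinc finger factor, which had 0 to 2 estimated counts per library, was at 0 in 19 of the 30 libraries and was not tested.

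The study asked whether myotubes become more mature when they are grown on a grooved gelatin surface, and 30 of its libraries, in 10 groups of 3, were analysed here. Of these, 9 come from primary myoblasts isolated from hindlimb muscle of 3 young adult C57/Bl6J mice. The other 21 come from C2C12, a clonal mouse myoblast line that fuses into myotubes when serum is lowered. C2C12 was sampled at day 4 and day 7 of differentiation on each of micropatterned gelatin hydrogel, unpatterned gelatin hydrogel and plastic, and at day 0 on plastic. Primary cells were sampled at day 4 and day 7 on patterned gelatin and at day 0 on a substrate labelled plastic. The study's methods describe expansion of primary myoblasts on dishes coated with an extracellular matrix gel, and whether the day 0 primary dishes were coated is not given in the sources used here. The expansion medium of primary cells also had more serum than the C2C12 growth medium, and it held basic fibroblast growth factor. Which medium the day 0 primary cultures were in is not stated clearly. Day 0 cultures are confluent myoblasts taken just before serum was lowered. Day and substrate differ together in the primary comparison with day 0 and in the comparison of patterned C2C12 with day 0. C2C12 is a single clone, and the sources used here do not say whether each primary replicate was a separate mouse. At days 4 and 7 the cultures were treated briefly with trypsin to enrich for myotubes and quenched in medium with serum before lysis. Whether the day 0 cultures were handled in the same way is not given in the sources used here, so day and harvest cannot be told apart in comparisons with day 0. The study describes more than 1 batch of C2C12 cells, whereas the labels give none, so batch entered no fit and its part in the C2C12 results was not tested. The p-values measure the spread between libraries within groups, pooled over all groups of a fit. The common value of that spread, as a coefficient of variation, was 0.119 in the C2C12 fit and 0.293 in the primary fit. It was 0.184 in the fit of all 30 libraries, so comparisons between cell types used a spread below that of primary cultures alone.

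Immediate early genes are transcribed within minutes of a stimulus such as serum, growth factors or mechanical and chemical stress, from transcription factors that are already present in the cell and need no new protein. Signals through the MAP kinases reach the serum response factor SRF, which binds CArG boxes, and CREB, which binds cyclic AMP response elements, and the products include both new transcription factors and phosphatases that shut the kinases off again. In muscle cells many of these genes are active in proliferating myoblasts, and several take part in the exit from the cell cycle and in differentiation.

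A 300-base promoter window, 250 bases before to 50 bases after the start of transcription (RefSeq, GRCm38.p6), was found for 32 of the 40 genes. The windows of 4 genes on which the results below turn are printed 5′ to 3′, with capitals for a CArG box, for TGACGT (the core of a cyclic AMP response element, ACGTCA on the other strand) and for the Egr site GCGNGGGCG on either strand. Fos (chr12:85473640-85473939, + strand) changed in opposite directions in the 2 cell types, Fosb (chr7:19309996-19310295, - strand) had the widest gap between the unpatterned day 4 libraries, Dusp5 (chr19:53528895-53529194, + strand) fell with differentiation in both cell types, and Srf (chr17:46556113-46556412, - strand) encodes the CArG box factor itself.
Fos: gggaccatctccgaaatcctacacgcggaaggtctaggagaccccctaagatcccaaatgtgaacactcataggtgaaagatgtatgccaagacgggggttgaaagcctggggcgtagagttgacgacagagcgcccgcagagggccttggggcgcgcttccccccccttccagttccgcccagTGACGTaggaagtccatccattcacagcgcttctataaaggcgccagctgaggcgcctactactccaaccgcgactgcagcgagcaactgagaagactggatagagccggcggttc
Fosb: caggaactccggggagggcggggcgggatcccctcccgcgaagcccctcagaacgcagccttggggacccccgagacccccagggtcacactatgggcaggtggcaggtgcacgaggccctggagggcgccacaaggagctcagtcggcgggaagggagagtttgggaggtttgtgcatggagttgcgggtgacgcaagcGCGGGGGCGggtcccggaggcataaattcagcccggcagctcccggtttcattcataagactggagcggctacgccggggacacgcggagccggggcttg
Dusp5: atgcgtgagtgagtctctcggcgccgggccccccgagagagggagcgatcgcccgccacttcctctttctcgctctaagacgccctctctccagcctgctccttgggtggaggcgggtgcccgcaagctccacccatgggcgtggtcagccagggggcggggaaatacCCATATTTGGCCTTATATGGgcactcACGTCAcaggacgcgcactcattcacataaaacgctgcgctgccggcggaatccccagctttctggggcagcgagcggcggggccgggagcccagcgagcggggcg
Srf: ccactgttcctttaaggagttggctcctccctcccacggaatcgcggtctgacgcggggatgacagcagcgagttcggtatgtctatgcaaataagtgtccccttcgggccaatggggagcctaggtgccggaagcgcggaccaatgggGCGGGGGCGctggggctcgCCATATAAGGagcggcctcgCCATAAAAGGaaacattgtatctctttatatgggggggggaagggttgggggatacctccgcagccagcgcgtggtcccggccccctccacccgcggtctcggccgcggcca

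The Fos window holds 1 TGACGT, the Fosb window 1 Egr site, the Dusp5 window 2 adjoining CArG boxes and 1 TGACGT, and the Srf window 2 CArG boxes and 1 Egr site. Over the 32 windows, a CArG box was present in 3 (Dusp5, Srf and Zfp36), against 1.59% of the windows of 27025 genes. TGACGT was present in 10 windows (31.25%, against 7.59% of all) and the full cyclic AMP response element TGACGTCA, which contains it, in 3 (1.85% of all). The Egr site was present in 12 windows (37.5%, against 5.53%), TATAAA in 7 (14.2% of all) and the AP-1 site TGANTCA in none (7.92% of all), each searched on both strands. These matches describe the letters of the windows and no binding was measured. Sites further upstream were not searched, so a window without a CArG box, such as that of Fos, does not show that the gene lacks one. No window was found for 8 members, among them Egr1, Egr3, Ier2 and Arc.

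Levels of the 40 genes spanned a wide range. In length-corrected units (TPM, transcript abundance scaled to a sum of 1e+06 in each library), Gadd45a, a stress-induced growth arrest gene, was the highest of them in every library at 111 to 1127 TPM, followed by the AP-1 subunit Junb with a median of 142 TPM and the kinase Plk2 with a median of 105 TPM. Fos had a median of 7.30 TPM, and Fosb and the cytoskeleton-associated gene Arc had medians under 1 TPM, at 0.686 for Fosb and 0.630 for Arc. Together the 40 genes held 0.102% to 0.198% of a library's TPM. Comparisons between libraries below use counts per 1e+06 counts after TMM normalisation (CPM), with log2 fold changes ± SE from edgeR's quasi-likelihood test and Benjamini-Hochberg adjusted p over all genes tested, at a threshold of 0.05. The heat map of the 39 tested genes shows the broad layout: the day 0 columns and the primary columns differ from the rest for many genes, and the third unpatterned day 4 library stands out from the other 2.

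**Figure D1:**
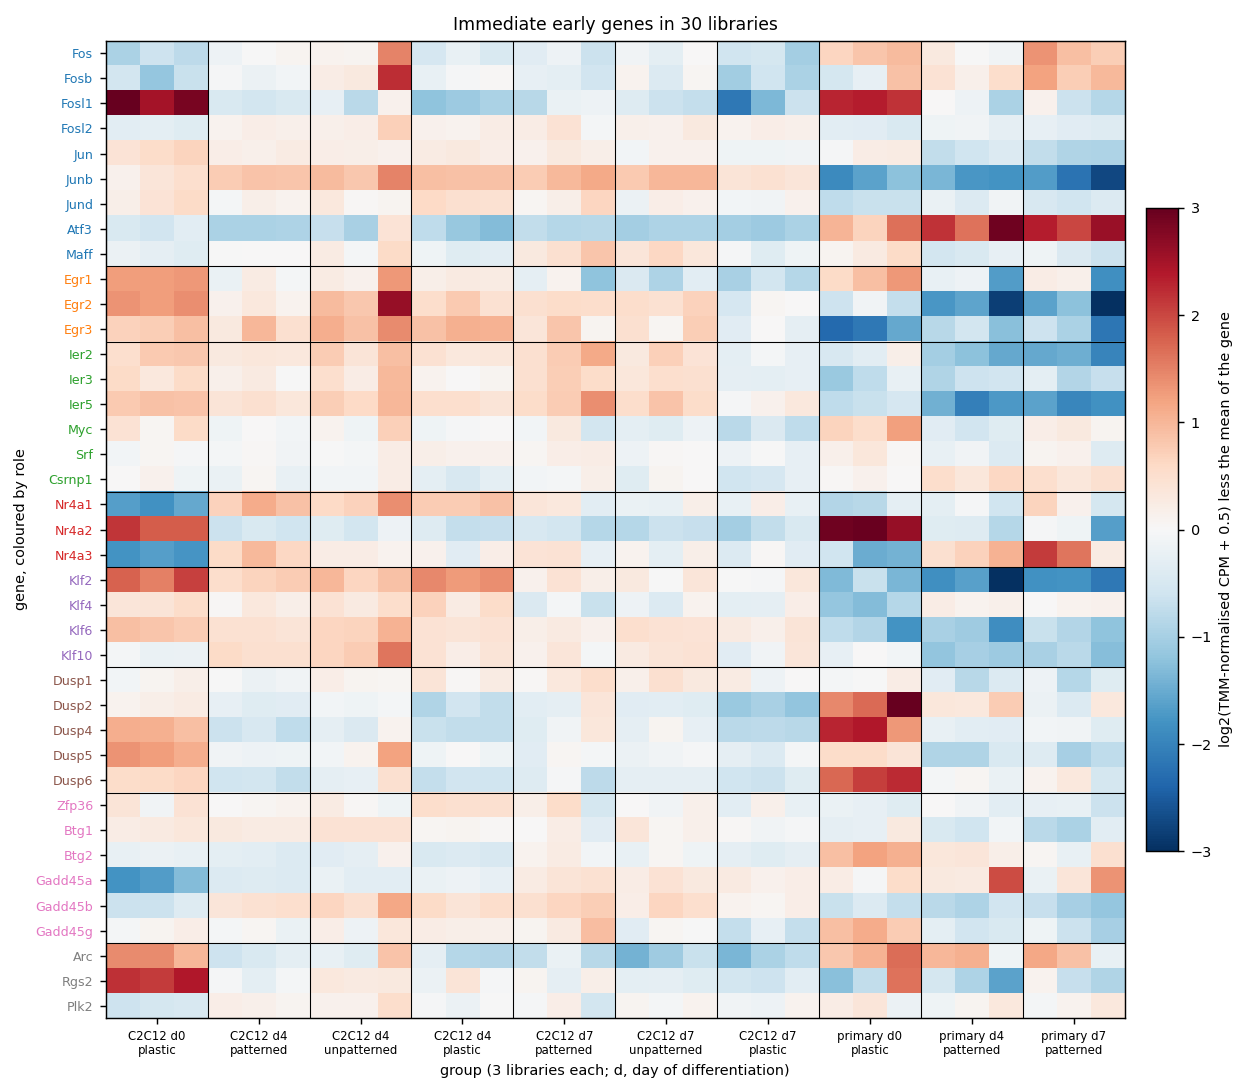
Heat map of the 39 tested immediate early genes (rows, coloured by role) in 30 libraries (columns, 3 per group), as log2(TMM-normalised CPM + 0.5) less the mean of the gene over all libraries. Fosl1 and Nr4a2 are high at day 0 in both cell types, and Rgs2 is high in C2C12 at day 0. Junb is low and Atf3 high in primary cells, and the third unpatterned day 4 library is higher than the other 2 for Fos, Fosb and Egr2.

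The libraries held 13.1 M to 59.4 M estimated counts (M, 1e+06). Myotube markers were present as labelled, summing to 11094 to 13826 TPM in C2C12 at day 4 and 550 to 774 TPM at day 0, and to 9832 to 15519 TPM in primary cultures at day 4 and 985 to 1938 TPM at day 0. The marker Myog differed, with 719, 710 and 255 TPM in primary cells at day 0 and 882, 853 and 422 TPM at day 4. In C2C12 at day 0 Myog had 137, 168 and 189 TPM. The other listed myotube markers were lower in every primary day 0 library than in any primary day 4 library. The part of early Myog in the comparisons with primary day 0 was not tested. Summed markers of macrophages, fibroblasts, Schwann cells and adipocytes were at most 11.4, 5.84, 2.80 and 0.448 TPM in any library, and those of endothelium at most 6.40 TPM except in patterned C2C12 day 7 replicate 3 (14.6 TPM), which also had the fewest counts. In bulk RNA, fewer cells that express a gene and less RNA per cell cannot be told apart. Antisense genes make the values of Fosl1 (Ccdc85b), Junb (Prdx2), Jund (Gm11175) and Dusp1 (Ergic1, Gm8225) uncertain, since the strand used in counting is not stated. Csrnp1 overlaps Cx3cr1 on the same strand, so its value is uncertain whichever strand was used.

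One C2C12 library stood apart in these genes. In unpatterned day 4 replicate 3, 30 of the 39 genes were the highest of the 3 libraries of that group, against 34.3% of all 15447 genes, and 16 exceeded the mean of the other 2 libraries by over 0.5 in log2(CPM + 0.5), against 1.73% of all genes. Fosb, which pairs with Jun proteins in AP-1, had 1.94, 2.07 and 9.21 CPM in unpatterned replicates 1 to 3, and Egr2, a zinc finger factor, had 14.2, 12.6 and 45.9 CPM. Fos itself had 8.18, 8.05 and 21.9 CPM there, and Egr1, the founding Egr factor, had 66.8, 61.01 and 139 CPM. In each of these 4 genes the third library was more than 2 times each of the others. Atf3, a stress-induced bZIP factor, was 2.49 times the mean CPM of the other 2 libraries, Dusp5, an ERK phosphatase of the nucleus, 2.33 times, Klf10, a growth factor-inducible Klf factor, 1.88 times, and Myc, the proliferation-associated transcription factor, 1.67 times. Other members were level: Jun was 0.968 times, Jund 0.929 times and Dusp1, a nuclear MAP kinase phosphatase, 0.949 times the mean of the other 2. Of 36 other early genes listed outside the 40, 13 were over the same limit in that library. This list too was chosen with earlier results of these data known. Also over the limit were 1 of 15 AP-1 partners and related bZIP factors (Cebpd) and 1 of 13 feedback inhibitors of ERK signalling (Spry4). None of 12 heat shock genes, 22 MAP kinase pathway genes, 7 myotube or 5 proliferation markers was. With 1.73% of all genes over the limit, counts of 0 or 1 in lists this small show little. Counts in comparisons with the unpatterned day 4 group are given below with and without it.

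**Figure D2:**
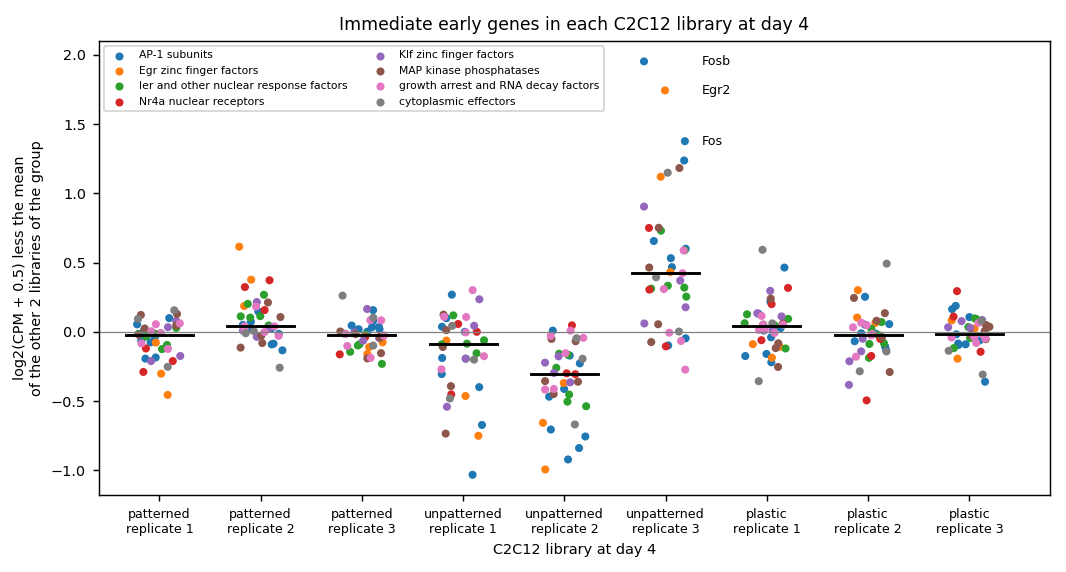
Difference of each of the 39 genes (points, coloured by role) in each C2C12 library at day 4 from the mean of the other 2 libraries of its group, in log2(CPM + 0.5); black bars are medians. The median was 0.42 in unpatterned replicate 3 and between -0.31 and 0.05 in the other 8 libraries.

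The comparison of day 4 with day 0 asks how these genes change as C2C12 myoblasts become myotubes. On patterned gelatin 25 of 39 members passed the test (64.1%, with 60.1% of all 14844 genes tested passing), 9 higher and 16 lower at day 4, where 30.9% of all genes were higher and 29.3% lower. On plastic 26 did (66.7%, with 58% of all genes), 8 higher and 18 lower, where 30.2% of all genes were higher and 27.7% lower. On TPM values the split on plastic was 5 higher and 21 lower. The members' share was thus near that of all genes in both comparisons, which share the day 0 libraries. The members that fell furthest were the AP-1 subunit Fosl1, the nuclear receptor Nr4a2, the G protein regulator Rgs2 and Arc, and those that rose were led by Nr4a1, Nr4a3 and Gadd45a.

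Within AP-1 the subunits moved apart. Fosl1, a Fos relative linked to proliferation, had 2.23, 2.05 and 2.20 CPM on patterned gelatin at day 4, 1.13, 1.25 and 1.42 CPM on plastic at day 4 and 29.4, 20.4 and 26.4 CPM at day 0. It fell on both substrates with no overlap between libraries, at a log2 fold change of -3.55 ± 0.31, adjusted p = 8.41e-09 on patterned gelatin and -4.30 ± 0.33, adjusted p = 1.26e-09 on plastic. Junb, a Jun protein often opposed to Jun in growth control, had 147, 155 and 153 CPM on patterned gelatin and 163, 159.8 and 159 CPM on plastic at day 4, and 94.6, 110.0 and 122 CPM at day 0. It rose on patterned gelatin (0.48 ± 0.14, adjusted p = 0.00493) and on plastic (0.56 ± 0.14, adjusted p = 0.00164). Fosl2, a Fos relative expressed in differentiating cells, rose as well (0.49 ± 0.11, adjusted p = 0.00106 on patterned gelatin), whereas Jun fell (-0.34 ± 0.07, adjusted p = 0.000375 on patterned gelatin).

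Fos had 6.76, 7.50 and 7.997 CPM on patterned gelatin at day 4, 5.16, 6.34 and 5.33 CPM on plastic at day 4 and 3.67, 4.68 and 4.18 CPM at day 0. Every day 4 library was above every day 0 library, and the change passed the test on patterned gelatin (0.82 ± 0.29, adjusted p = 0.0192) but not on plastic (0.41 ± 0.29, adjusted p = 0.241). The difference between these substrates did not pass (below, as patterned over plastic). Of the other panel subunits on plastic, Fosb gave 1.06 ± 0.50, Jund, the constitutive Jun protein, gave 0.11 ± 0.15, and Atf3 gave -0.69 ± 0.26, adjusted p = 0.0278. Atf3 was thus lower on plastic, and on patterned gelatin none of these 3 passed.

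The 3 Nr4a orphan nuclear receptors ran in both directions. Nr4a1 had 28.01, 37.4 and 31.6 CPM on patterned gelatin and 29.3, 29.5 and 31.8 CPM on plastic at day 4, and 5.06, 4.46 and 5.55 CPM at day 0. Nr4a3 had 11.4, 15.1 and 11.7 CPM on patterned gelatin and 8.19, 5.80 and 8.57 CPM on plastic at day 4, and 1.81, 2.03 and 1.82 CPM at day 0. Both were higher in every day 4 library than in any day 0 library. Nr4a2 was lower in every day 4 library, with 3.18, 3.69 and 3.33 CPM on patterned gelatin, 3.90, 3.01 and 3.06 CPM on plastic and 24.98, 19.9 and 19.96 CPM at day 0. On patterned gelatin the log2 fold changes were 2.69 ± 0.22, adjusted p = 2.39e-09 for Nr4a1, 2.74 ± 0.21, adjusted p = 8.4e-10 for Nr4a3 and -2.67 ± 0.16, adjusted p = 2.53e-11 for Nr4a2, and on plastic they were 2.59 for Nr4a1, 1.99 for Nr4a3 and -2.72 for Nr4a2.

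Of the 5 MAP kinase phosphatases 4 fell in both comparisons and none rose. Dusp4, a nuclear phosphatase of ERK and related kinases, had 23.7, 26.5 and 21.9 CPM on patterned gelatin and 23.1, 22.04 and 22.2 CPM on plastic at day 4, and 79.9, 79.01 and 70.2 CPM at day 0 (-1.67 ± 0.16, adjusted p = 1.95e-08 on patterned gelatin). Dusp6, the cytoplasmic ERK phosphatase, had 20.1, 20.7 and 18.3 CPM on patterned gelatin and 18.6, 20.4 and 20.00 CPM on plastic at day 4, and 45.1, 45.8 and 47.9 CPM at day 0 (-1.23 ± 0.16, adjusted p = 2e-06 on patterned gelatin). In both genes the day 4 libraries of the 2 substrates lay close together, far under day 0. Dusp5, whose window is printed above, had 8.71, 9.68 and 8.84 CPM on plastic at day 4 and 25.3, 23.6 and 21.1 CPM at day 0 (-1.37 ± 0.22, adjusted p = 2.47e-05 on plastic). Dusp2, a nuclear phosphatase known from immune cells, fell on patterned gelatin (-0.57 ± 0.17, adjusted p = 0.00636) and on plastic (-1.06 ± 0.17, adjusted p = 2.38e-05). Dusp1 gave -0.15 on patterned gelatin and 0.16 on plastic and passed on neither.

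Among the Egr factors, Egr1 had 48.3, 66.3 and 53.7 CPM on patterned gelatin and 63.4, 68.1 and 66.8 CPM on plastic at day 4, and 134, 133 and 139 CPM at day 0. It fell on patterned gelatin (-1.27 ± 0.27, adjusted p = 0.000476) and on plastic (-1.04 ± 0.27, adjusted p = 0.00273). Ier2, a nuclear growth factor response protein, gave -0.39 ± 0.16, adjusted p = 0.0373 on patterned gelatin, where it passed, and -0.34 ± 0.16, adjusted p = 0.0679 on plastic, where it did not. Myc (-0.44 ± 0.19, adjusted p = 0.0551 on patterned gelatin) and Srf (-0.03 ± 0.09, adjusted p = 0.785 on patterned gelatin) did not pass on either substrate. Klf2, a Klf factor known from endothelium and quiescent cells, fell on patterned gelatin (-1.16 ± 0.14, adjusted p = 4.83e-07), while Klf10 rose there (0.66 ± 0.19, adjusted p = 0.00536).

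Gadd45a had 152, 154 and 151 CPM on patterned gelatin and 178, 182 and 170.0 CPM on plastic at day 4, and 58.4, 62.97 and 81.5 CPM at day 0, with no overlap. It rose on patterned gelatin (1.17 ± 0.10, adjusted p = 4.65e-09) and on plastic (1.38 ± 0.10, adjusted p = 5.09e-10), and so did its relative Gadd45b, also a stress-induced activator of MAP kinases (1.02 ± 0.15, adjusted p = 5e-06 on patterned gelatin). Of the effectors, Rgs2 (-2.69 ± 0.18, adjusted p = 1.47e-10 on patterned gelatin) and Arc (-2.20 ± 0.39, adjusted p = 6.23e-05 on patterned gelatin) fell and Plk2, a kinase of centriole duplication and synaptic signalling, rose (0.69 ± 0.13, adjusted p = 0.000103 on patterned gelatin). Proliferation markers moved with these changes, summing to 105 to 140 TPM in C2C12 at day 4 and 1004 to 1193 TPM at day 0, and their part in the result was not tested.

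**Figure D3:**
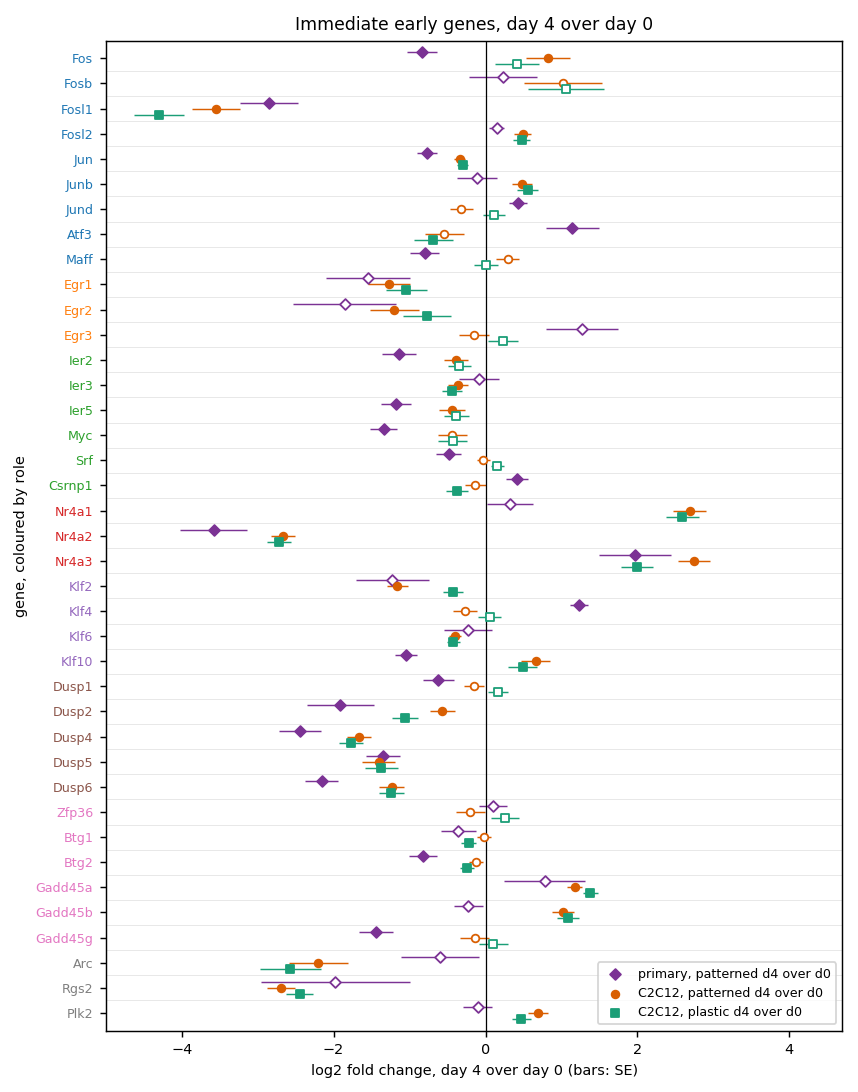
Log2 fold change of each gene, day 4 over day 0, with SE bars, in primary cells on patterned gelatin, C2C12 on patterned gelatin and C2C12 on plastic; filled markers passed the test. Nr4a2, Fosl1, Dusp2, Dusp4, Dusp5 and Dusp6 lie left of 0 in all 3, while Klf10 and Fos lie left of 0 in primary cells and right of it in C2C12.

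In primary cells the same question gave 22 of 39 members past the threshold at day 4 over day 0, 5 higher and 17 lower (56.4%, with 42.6% of all 14352 genes tested, 20.2% higher and 22.4% lower). The median log2 fold change of the members was -0.62, against -0.04 over all genes. Replicate numbers pair the primary libraries, and with the replicate number as a block 26 members passed, 5 higher and 21 lower. Egr1 (-1.78, adjusted p = 0.0157), Egr2, Klf2 and Btg1 were added. All 5 MAP kinase phosphatases fell. Dusp6 had 29.2, 32.04 and 26.8 CPM at day 4 and 103, 131 and 147 CPM at day 0 (-2.16 ± 0.22, adjusted p = 0.000138), and Dusp4 had 31.7, 29.9 and 29.2 CPM at day 4 and 182, 201 and 92.5 CPM at day 0 (-2.45 ± 0.28, adjusted p = 0.000236). Nr4a2 had 3.999, 3.96 and 2.70 CPM at day 4 and 42.95, 44.9 and 35.00 CPM at day 0, the largest fall of the 39 at -3.58 ± 0.44, adjusted p = 0.000347. In these 3 genes every day 4 library lay below every day 0 library.

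Further members fell in primary cells. Fosl1 had 3.28, 2.85 and 1.43 CPM at day 4 and 17.8, 18.8 and 16.2 CPM at day 0 (-2.86 ± 0.38, adjusted p = 0.000538). Myc had 14.5, 12.2 and 14.2 CPM at day 4 and 29.9, 26.9 and 44.3 CPM at day 0 (-1.34 ± 0.18, adjusted p = 0.000533), and Jun, the central AP-1 partner, had 72.5, 80.1 and 91.5 CPM at day 4 and 118, 141 and 144 CPM at day 0 (-0.77 ± 0.13, adjusted p = 0.00169). None of these 3 genes overlapped between the days. Klf10 gave -1.05 ± 0.14, the stress gene Gadd45g -1.44 ± 0.23 and Dusp5 -1.35 ± 0.23, all past the threshold. Of the remaining panel genes, Ier2 (-1.14 ± 0.22, adjusted p = 0.00347), Fos (-0.83 ± 0.20, adjusted p = 0.00946) and Srf (-0.48 ± 0.17, adjusted p = 0.0441) fell as well. Fosb (0.23 ± 0.44), Fosl2 (0.15 ± 0.10), Junb (-0.11 ± 0.27) and Egr1 (-1.54 ± 0.55, adjusted p = 0.0514, without the block) did not pass.

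The 5 members that rose in primary cells were Klf4, Nr4a3, Jund, Atf3 and Csrnp1. Klf4, a Klf factor of growth arrest and pluripotency, had 70.7, 65.1 and 67.1 CPM at day 4 and 26.8, 24.1 and 33.2 CPM at day 0 (1.23 ± 0.12, adjusted p = 0.000101), and the groups were far apart. Nr4a3 had 10.6, 12.4 and 15.97 CPM at day 4 and 4.80, 2.36 and 2.48 CPM at day 0 (1.97 ± 0.48, adjusted p = 0.00987), again with no overlap. Atf3 had 41.1, 28.2 and 69.4 CPM at day 4 and 18.4, 14.3 and 28.6 CPM at day 0 (1.15 ± 0.36, adjusted p = 0.0293); its lowest day 4 library, 28.2 CPM, lay under its highest day 0 library, 28.6 CPM. The other 2 were Jund (0.42 ± 0.12, adjusted p = 0.0166) and Csrnp1, a nuclear protein induced by Axin (0.42 ± 0.14, adjusted p = 0.0415). The third primary library of day 4 had a lower myotube marker sum than the other 2 (9832 TPM, against 14600 and 15519), and without it 17 members passed. Leaving out any other single library gave between 17 and 21. Primary day 0 replicate 3 differed from the other 2 of its group as well. In it, 13 of the 39 members exceeded the mean of those 2 by over 0.5 in log2(CPM + 0.5), against 15.4% of all genes. Dusp2 had 37.02 CPM there, against 11.4 and 13.5 CPM, and Dusp4 had 92.5 CPM, against 182 and 201 CPM. That library is part of every comparison with primary day 0. Proliferation markers summed to 28.9 to 69.6 TPM in primary cells at day 4 and 229 to 332 TPM at day 0, and myoblast markers to 345 to 423 TPM at day 4 and 1008 to 1185 TPM at day 0. Their part in the primary result was not tested.

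The change at day 4 over day 0 was then set against that of patterned C2C12 by an interaction term, on libraries labelled with like substrates on each day. Cell type and the medium of expansion, with its serum and growth factor, differ together in this term and cannot be told apart. The interaction passed for 18 of 39 members, 5 more positive and 13 more negative in primary cells (46.2%, with 20.5% of all 15447 genes, 9.87% more positive and 10.6% more negative). Nr4a1 differed most among the negative ones at -2.32 ± 0.37, adjusted p = 7.01e-05, with 13.9, 16.6 and 11.04 CPM at day 4 and 9.11, 9.29 and 13.8 CPM at day 0 in primary cells beside its steep rise in C2C12. Klf10 (-1.66 ± 0.27, adjusted p = 7.52e-05) fell in primary cells, to 23.6, 26.9 and 25.2 CPM at day 4 against 45.6, 54.7 and 50.8 CPM at day 0, and rose in C2C12, to 80.2, 76.02 and 75.7 CPM at day 4 against 51.6, 47.1 and 47.98 CPM at day 0. Fos did the same, with 9.28, 7.48 and 6.95 CPM at day 4 and 11.97, 13.9 and 15.00 CPM at day 0 in primary cells and an interaction of -1.61 ± 0.38, adjusted p = 0.00372. For Klf10 and Fos the direction itself thus differed between the cell types, each past the threshold on its own.

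Gadd45b had 11.7, 10.8 and 13.98 CPM at day 4 and 13.1, 15.6 and 12.6 CPM at day 0 in primary cells, where it did not pass, and 27.1, 29.2 and 29.8 CPM at day 4 and 13.2, 13.2 and 16.01 CPM at day 0 in C2C12, where it rose (interaction -1.20 ± 0.22, adjusted p = 0.000317). Gadd45g had 20.6, 16.8 and 18.2 CPM at day 4 and 47.4, 55.3 and 42.99 CPM at day 0 in primary cells, and 24.1, 26.2 and 21.97 CPM at day 4 and 24.1, 26.5 and 29.02 CPM at day 0 in C2C12 (interaction -1.25 ± 0.29, adjusted p = 0.0029). Maff, a small Maf bZIP protein, had 9.84, 10.4 and 12.3 CPM at day 4 and 15.4, 17.6 and 22.1 CPM at day 0 in primary cells, and 14.5, 14.9 and 14.9 CPM at day 4 and 12.9, 11.96 and 11.2 CPM at day 0 in C2C12 (interaction -1.05 ± 0.24, adjusted p = 0.0024). Gadd45g and Maff thus fell in primary cells and did not pass in C2C12.

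Both Dusp2 and Dusp6 fell in both cell types and fell further in primary cells. Dusp2 had 4.96, 4.90 and 6.91 CPM at day 4 and 11.4, 13.5 and 37.02 CPM at day 0 in primary cells, and 3.18, 2.85 and 2.91 CPM at day 4 and 4.19, 4.402 and 4.68 CPM at day 0 in C2C12 (interaction -1.31 ± 0.42, adjusted p = 0.029), and Dusp6 had an interaction of -0.88 ± 0.28, adjusted p = 0.0263. The antiproliferative gene Btg2 had 53.98, 54.6 and 47.8 CPM at day 4 and 80.1, 97.8 and 89.4 CPM at day 0 in primary cells, and 34.5, 34.1 and 31.9 CPM at day 4 and 36.05, 37.3 and 36.1 CPM at day 0 in C2C12 (interaction -0.65 ± 0.19, adjusted p = 0.0153). Plk2 had 146, 171 and 199 CPM at day 4 and 186, 207 and 141 CPM at day 0 in primary cells, and 185, 178 and 169 CPM at day 4 and 104, 111 and 114 CPM at day 0 in C2C12 (interaction -0.74 ± 0.22, adjusted p = 0.0194). Plk2 passed in C2C12, where it rose, and did not pass in primary cells. Myc (-0.86 ± 0.29, adjusted p = 0.0381), Jun (-0.38 ± 0.13, adjusted p = 0.0396) and Ier5, an early gene of growth and stress signals (-0.69 ± 0.24, adjusted p = 0.0473), were more negative in primary cells as well.

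Of the members with a more positive change in primary cells, Klf4 had 61.4, 74.9 and 67.6 CPM at day 4 and 77.8, 79.3 and 88.9 CPM at day 0 in C2C12, where it did not pass, beside its rise in primary cells (interaction 1.54 ± 0.23, adjusted p = 2.57e-05). Atf3 had 4.32, 4.30 and 4.37 CPM at day 4 and 6.27, 5.78 and 6.91 CPM at day 0 in C2C12 (interaction 1.72 ± 0.43, adjusted p = 0.00561). Egr3, an Egr factor of muscle spindles and lymphocytes, had 4.48, 5.58 and 3.22 CPM at day 4 and 1.26, 1.52 and 2.55 CPM at day 0 in primary cells, and 10.4, 17.4 and 11.995 CPM at day 4 and 13.8, 14.3 and 16.1 CPM at day 0 in C2C12 (interaction 1.47 ± 0.45, adjusted p = 0.0225). Egr3 gave 1.27 ± 0.47, adjusted p = 0.0582 in primary cells on its own and did not pass there. Jund had 105, 91.5 and 113 CPM at day 4 and 71.2, 76.1 and 75.7 CPM at day 0 in primary cells, and 117, 137 and 130.4 CPM at day 4 and 137, 161 and 181 CPM at day 0 in C2C12 (interaction 0.79 ± 0.19, adjusted p = 0.00436), and Csrnp1 had an interaction of 0.59 ± 0.19, adjusted p = 0.0311. Leaving out 1 library at a time left 13 to 18 members past the threshold. The plot of 8 genes by day shows these courses.

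**Figure D4:**
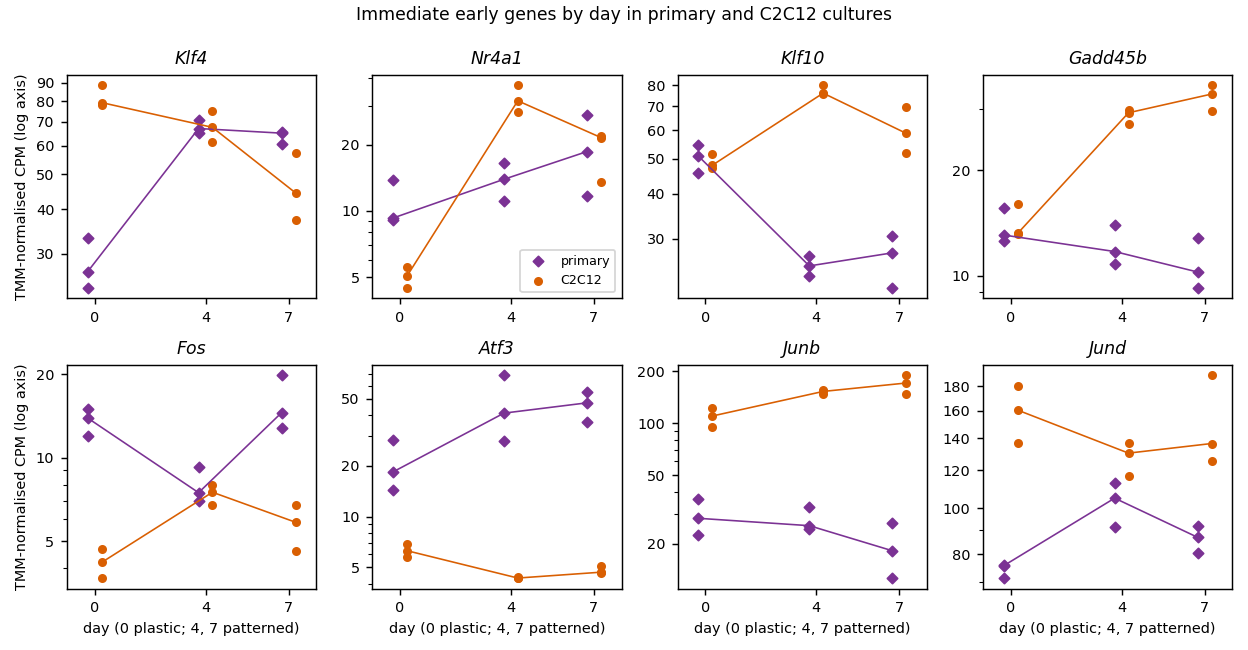
TMM-normalised CPM (log axis) of 8 genes at days 0, 4 and 7 in primary cells (purple diamonds) and C2C12 (orange circles), with every library shown and lines through the medians. Day 0 is plastic and days 4 and 7 are patterned gelatin. Klf4 rises in primary cells to 65.1 to 70.7 CPM at day 4, Klf10 and Fos move in opposite directions between days 0 and 4, and Junb is lower in primary cells on every day.

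Between day 4 and day 7 no member passed in primary cells, and 0% of all genes did. At an unadjusted p under 0.05 there were 2, Fos (1.00 ± 0.20, adjusted p = 0.753) and Myc (0.64 ± 0.18, adjusted p = 0.901), and DESeq2 called 1, Fos (adjusted p = 0.00615). Fos had 19.9, 14.6 and 12.8 CPM at day 7 and 9.28, 7.48 and 6.95 CPM at day 4, with no overlap. Primary patterned day 7 replicate 3 stood apart: 25 of the 39 members were its group's lowest, against 43.4% of all genes, and its myotube markers summed to 7212 TPM, against 14925 and 18110 TPM in the other 2. Egr1, for example, had 65.2, 62.4 and 15.2 CPM in the 3 libraries. The interaction of this change with cell type passed for no member by edgeR, with 0.77% of all genes past the threshold and 14 members at an unadjusted p under 0.05. The share of all genes at that unadjusted p is not given here, so the 14 cannot be read against it. DESeq2 called 3 (Fos, Nr4a1 and Ier2). Without primary patterned day 7 replicate 3, edgeR called 5 (Nr4a3, Nr4a1, Fos, Btg2 and Gadd45a), and without patterned C2C12 day 7 replicate 1 it called Ier2.

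In C2C12, day 7 was compared with day 4 on each substrate. On patterned gelatin 14 of 39 members passed, 8 higher and 6 lower (35.9%, with 20.3% of all genes, 11.3% higher and 9.03% lower). On unpatterned gelatin 9 did, 1 higher and 8 lower (23.1%, with 2.92% of all genes, 1.62% higher and 1.31% lower). On plastic 15 did, 1 higher and 14 lower (38.5%, with 14.8% of all genes, 6.47% higher and 8.37% lower), with a median of -0.33 against 0.00 over all genes. On TPM values the split was 5 higher and 2 lower on patterned gelatin, 1 higher and 2 lower on unpatterned gelatin, and 2 higher and 3 lower on plastic.

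Gadd45a rose on all 3 substrates. It had 242, 266 and 279 CPM on patterned gelatin at day 7 and 152, 154 and 151 CPM at day 4 (0.76 ± 0.10, adjusted p = 0.000157). On unpatterned gelatin it had 236, 275 and 249 CPM at day 7 and 176, 164 and 162 CPM at day 4 (0.60 ± 0.10, adjusted p = 0.00194), and on plastic 243, 222 and 233 CPM at day 7 and 178, 182 and 170.0 CPM at day 4 (0.41 ± 0.10, adjusted p = 0.00894). The days did not overlap on any substrate. Klf2 and Nr4a1 fell on all 3. Klf2 gave -0.44 ± 0.15, adjusted p = 0.0391 on patterned and -0.65 ± 0.14, adjusted p = 0.0155 on unpatterned gelatin, and on plastic it had 8.12, 7.97 and 10.4 CPM at day 7 and 23.1, 20.5 and 22.2 CPM at day 4 (-1.30 ± 0.14, adjusted p = 2.2e-05). Nr4a1 gave -0.78 on patterned and -1.04 on unpatterned gelatin, and on plastic it had 14.6, 19.8 and 14.6 CPM at day 7 and 29.3, 29.5 and 31.8 CPM at day 4 (-0.87 ± 0.20, adjusted p = 0.00658).

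On patterned gelatin the other members that rose were Btg2 (0.42 ± 0.10, adjusted p = 0.00873), Dusp4 (0.60 ± 0.16, adjusted p = 0.0157), Maff (0.53 ± 0.15, adjusted p = 0.0244), Ier3, a regulator of cell survival (0.45 ± 0.13, adjusted p = 0.0283), Ier5 (0.53 ± 0.17, adjusted p = 0.0334), Ier2 (0.49 ± 0.16, adjusted p = 0.036) and Dusp1 (0.38 ± 0.13, adjusted p = 0.0483). Those that fell were Klf4 (-0.58), the antiproliferative gene Btg1 (-0.30), Klf6, a ubiquitous Klf factor (-0.27), and Nr4a3 (-0.54). The panel genes lay between -0.40 for Egr1 and 0.49 for Ier2. Fitted on these 2 groups alone, without the spread of the other groups, 1 member passed. Without patterned day 4 replicate 1, 2 or 3 there were 5, 4 and 3, and without patterned day 7 replicate 3 there were 2.

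On unpatterned gelatin the other members that fell were Egr1 (-1.21 ± 0.28, adjusted p = 0.0204), Arc (-1.90 ± 0.44, adjusted p = 0.0247), Klf6 (-0.36 ± 0.08, adjusted p = 0.0252), Rgs2 (-0.79), Klf10 (-0.72) and Egr2 (-1.19). Without unpatterned day 4 replicate 3, 2 members passed (Gadd45a and Nr4a1, with 1.23% of all genes), and without unpatterned day 7 replicate 1, 2 or 3 there were 5, 2 and 5. The panel genes ranged between -1.55 for Fosb and -0.09 for Jund.

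On plastic the zinc finger factors Egr3 (-1.23 ± 0.21, adjusted p = 0.000766), Egr1 (-1.02 ± 0.28, adjusted p = 0.0191) and Klf4 (-0.60 ± 0.16, adjusted p = 0.0161) fell. So did Gadd45g (-0.72 ± 0.19, adjusted p = 0.0184), Rgs2 (-0.73 ± 0.20, adjusted p = 0.0205) and the mRNA decay factor Zfp36 (-0.63). Of the panel, Jun (-0.36 ± 0.07, adjusted p = 0.00265), Junb (-0.48 ± 0.14, adjusted p = 0.0243), Ier2 (-0.56 ± 0.16, adjusted p = 0.0246), Jund (-0.51 ± 0.15, adjusted p = 0.0254), Myc (-0.61 ± 0.20, adjusted p = 0.0448) and Srf (-0.26 ± 0.09, adjusted p = 0.0461) fell. Rgs2 turned round on TPM values (0.13, adjusted p = 0.661). Leaving out plastic day 4 replicate 1, 2 or 3 gave 7, 6 and 8 members, and leaving out plastic day 7 replicate 1 or 3 gave 5 and 8.

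The change at day 7 over day 4 on patterned gelatin, less that on plastic, was positive and past the threshold for 10 of 39 members (25.6%, with 11.7% of all genes, 6.24% positive and 5.5% negative) and negative for none. The 10 were Ier2, Gadd45g, Klf2, Ier3, Srf, Ier5, Egr3, Jund, Jun and Junb. Ier2 had 43.7, 52.9 and 69.6 CPM at day 7 and 38.3, 39.7 and 38.6 CPM at day 4 on patterned gelatin, and 25.4, 29.8 and 26.2 CPM at day 7 and 42.8, 38.8 and 39.5 CPM at day 4 on plastic (interaction 1.05 ± 0.22, adjusted p = 0.0228). Ier5 had 37.6, 43.6 and 67.7 CPM at day 7 and 33.7, 35.6 and 32.5 CPM at day 4 on patterned gelatin, and 24.9, 27.7 and 31.9 CPM at day 7 and 36.1, 36.6 and 33.5 CPM at day 4 on plastic (interaction 0.84 ± 0.24, adjusted p = 0.0359). In both genes every day 7 library was above day 4 on patterned gelatin and below it on plastic, and patterned day 7 replicate 3 was the highest of all.

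Gadd45g had 26.6, 30.6 and 48.3 CPM at day 7 and 24.1, 26.2 and 21.97 CPM at day 4 on patterned gelatin, and 15.2, 21.3 and 15.1 CPM at day 7 and 29.3, 28.4 and 28.1 CPM at day 4 on plastic (interaction 1.24 ± 0.27, adjusted p = 0.0239). Egr3 had 10.9, 15.4 and 8.97 CPM at day 7 and 10.4, 17.4 and 11.995 CPM at day 4 on patterned gelatin, and 6.56, 8.45 and 6.92 CPM at day 7 and 15.8, 18.2 and 17.98 CPM at day 4 on plastic (interaction 1.03 ± 0.29, adjusted p = 0.0364). Patterned day 7 replicate 3 was again the highest day 7 library for Gadd45g, but the lowest of the 3 patterned ones for Egr3. Jund had 126, 137 and 190.3 CPM at day 7 and 117, 137 and 130.4 CPM at day 4 on patterned gelatin, and 114, 113 and 133 CPM at day 7 and 184, 169 and 166 CPM at day 4 on plastic (interaction 0.74 ± 0.21, adjusted p = 0.0366). The interaction was 0.85 ± 0.20, adjusted p = 0.026 for Klf2, 0.78 ± 0.19, adjusted p = 0.0276 for Ier3, 0.45 ± 0.12, adjusted p = 0.0319 for Srf, 0.33 ± 0.10, adjusted p = 0.042 for Jun and 0.62 ± 0.19, adjusted p = 0.0449 for Junb.

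This interaction was sensitive to single libraries. Without plastic day 4 replicate 1, 2 or 3 it passed for 2, 0 and 4 members, without patterned day 4 replicate 1, 2 or 3 for 0, 6 and 0, without plastic day 7 replicate 1 or 3 for 2 and 3, and without patterned day 7 replicate 3 for 6. Fitted on the 4 groups alone it passed for 5 members, and on TPM values for 2. The same interaction for unpatterned gelatin passed for no member by edgeR (0% of all genes) or DESeq2 (0.121% of all genes). At an unadjusted p under 0.05 by edgeR there were 4 members, with 1532 of 14844 genes. Without unpatterned day 4 replicate 3 this interaction again passed for no member by edgeR (0% of all genes) or DESeq2 (0.02%). By edgeR, 4 members and 1009 of 15017 genes were then at an unadjusted p under 0.05.

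Substrates were compared directly at day 4. On patterned gelatin over plastic 2 of 39 members passed, 1 in each direction (5.13%, with 3.55% of all genes, 2.1% higher and 1.46% lower). Klf2 had 12.1, 13.2 and 14.2 CPM on patterned gelatin and 23.1, 20.5 and 22.2 CPM on plastic (-0.73 ± 0.14, adjusted p = 0.00685). Nr4a3 had 11.4, 15.1 and 11.7 CPM on patterned gelatin and 8.19, 5.80 and 8.57 CPM on plastic (0.75 ± 0.18, adjusted p = 0.0268). Neither gene overlapped between the substrates. The 12 panel genes lay between -0.43 for Jund and 0.75 for Fosl1, none past the threshold. Fos gave 0.41 ± 0.28, adjusted p = 0.471. Fitted on these 2 groups alone 15 members passed, 7 higher and 8 lower, while leaving out 1 library left 1 or 2, and none without patterned day 4 replicate 1. The share of all genes in these fits is not given here, so the 15 cannot be read against it.

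On unpatterned gelatin over plastic at day 4, 13 members passed, 12 higher and 1 lower (33.3%, with 7.89% of all genes, 4.02% higher and 3.87% lower), with a median of 0.33. Without unpatterned day 4 replicate 3, the library that stood apart, no member passed by edgeR (1.75% of all genes did). At an unadjusted p under 0.05 by edgeR there were then 11 members, with 2649 of 15017 genes. DESeq2 called 5 (Btg1, Dusp2, Fos, Klf2 and Klf6), with 5.61% of all genes. Fos had 8.18, 8.05 and 21.9 CPM on unpatterned gelatin and 5.16, 6.34 and 5.33 CPM on plastic (1.18 ± 0.28, adjusted p = 0.017), and 0.54 ± 0.17 without that library. Fosb (1.55 ± 0.43, adjusted p = 0.0349) gave 0.42 without it and Egr2 (1.15 ± 0.32, adjusted p = 0.0337) gave 0.30. Dusp2 had 3.62, 3.47 and 3.70 CPM on unpatterned gelatin and 1.82, 2.42 and 2.12 CPM on plastic (0.75 ± 0.17, adjusted p = 0.0153); all 3 unpatterned libraries were high, and without the third it kept 0.75 with an adjusted p of 0.0631.

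Klf6 (0.37 ± 0.08, adjusted p = 0.0135), Dusp6 (0.67 ± 0.16, adjusted p = 0.0193), Ier3 (0.54 ± 0.13, adjusted p = 0.0207), the antiproliferative gene Btg1 (0.37 ± 0.09, adjusted p = 0.0238) and Klf10 (0.72 ± 0.19, adjusted p = 0.0268) were higher on unpatterned gelatin too, and Klf2, with 16.95, 13.2 and 15.6 CPM on unpatterned gelatin and 23.1, 20.5 and 22.2 CPM on plastic, was lower (-0.53 ± 0.14, adjusted p = 0.0249). Without the third library Klf6 gave 0.25, Dusp6 0.38, Ier3 0.33, Btg1 0.38, Klf10 0.37 and Klf2 -0.54. The median of all 39 members was then 0.21, with 26 of 39 above 0. Leaving out plastic day 4 replicate 1, 2 or 3 gave 1, 2 and 1 members. Maff, Dusp4 and Atf3 (0.86 ± 0.25, adjusted p = 0.0449) passed with all libraries as well, Atf3 with overlapping groups. The remaining panel genes, between -0.37 for Jund and 1.03 for Fosl1, did not pass.

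At day 7 patterned gelatin over plastic gave 16 of 39 members higher and none lower (41%, with 23.8% of all genes, 12.9% higher and 10.9% lower). The members' median was 0.37, against 0.00 over all genes. All 6 Ier and other nuclear response factors were among them. Dusp2 had 3.01, 3.11 and 5.05 CPM on patterned gelatin and 1.51, 1.70 and 1.42 CPM on plastic (1.22 ± 0.19, adjusted p = 0.00078). Ier2 (1.00 ± 0.16, adjusted p = 0.00114), whose values are given above, and Ier3, with 19.6, 23.6 and 20.7 CPM on patterned gelatin and 11.4, 11.3 and 11.7 CPM on plastic (0.86 ± 0.14, adjusted p = 0.00114), did not overlap between substrates. Gadd45g (1.00 ± 0.20, adjusted p = 0.0034), Dusp4 (0.78 ± 0.16, adjusted p = 0.00426), Ier5 (0.79 ± 0.17, adjusted p = 0.00527) and Maff (0.70 ± 0.16, adjusted p = 0.00627) were also higher, as were Csrnp1, Egr3, Rgs2, Gadd45b and Btg2, between 0.37 for Btg2 and 0.65 for Egr3.

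Among the AP-1 subunits, Junb had 147, 171 and 190.2 CPM on patterned gelatin and 113, 119 and 111 CPM on plastic (0.54 ± 0.14, adjusted p = 0.0113). Jun had 133, 148 and 137 CPM on patterned gelatin and 111, 111 and 112 CPM on plastic (0.29 ± 0.07, adjusted p = 0.01). In both genes the lowest patterned library lay above the highest plastic one. Srf (0.27 ± 0.09, adjusted p = 0.0334) and Myc (0.58 ± 0.20, adjusted p = 0.0447) were higher as well, Myc with overlapping groups. The Fos genes gave 0.34 ± 0.30 for Fos, 0.76 ± 0.55 for Fosb, 1.03 ± 0.39, adjusted p = 0.0582 for Fosl1 and 0.03 ± 0.11 for Fosl2, while Jund gave 0.31, Egr1 0.39 and Atf3 0.21, and none of these 7 passed. Fitted on the 2 groups alone no member passed, TPM values gave 9, all higher, and without plastic day 7 replicate 1 there were 10. Shares of all genes in these settings are not given here. Proliferation markers summed to 62.7 to 82.2 TPM on patterned gelatin and 74.3 to 145 TPM on plastic at day 7, and their part in the result was not tested.

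On unpatterned gelatin over plastic at day 7, 6 members passed, all higher (15.4%, with 3.46% of all genes, 2.49% higher and 0.977% lower). They were Ier3, with 17.7, 20.02 and 19.5 CPM on unpatterned gelatin and the plastic values above (0.71 ± 0.14, adjusted p = 0.0067), Dusp2 (0.90 ± 0.18, adjusted p = 0.00962), Dusp4 (0.66 ± 0.16, adjusted p = 0.0258), Ier2 (0.66 ± 0.16, adjusted p = 0.0278), Maff (0.61 ± 0.15, adjusted p = 0.0341) and Junb (0.50 ± 0.14, adjusted p = 0.0469). Both comparisons share the plastic libraries, so their likeness is no independent evidence. The other 10 panel genes lay between 0.02 for Fosl2 and 1.16 for Fosb. Without plastic day 7 replicate 1, 2 or 3 it was 3 members each, without unpatterned day 7 replicate 2 or 3 it was 2 and 3, and on TPM values 1.

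**Figure D5:**
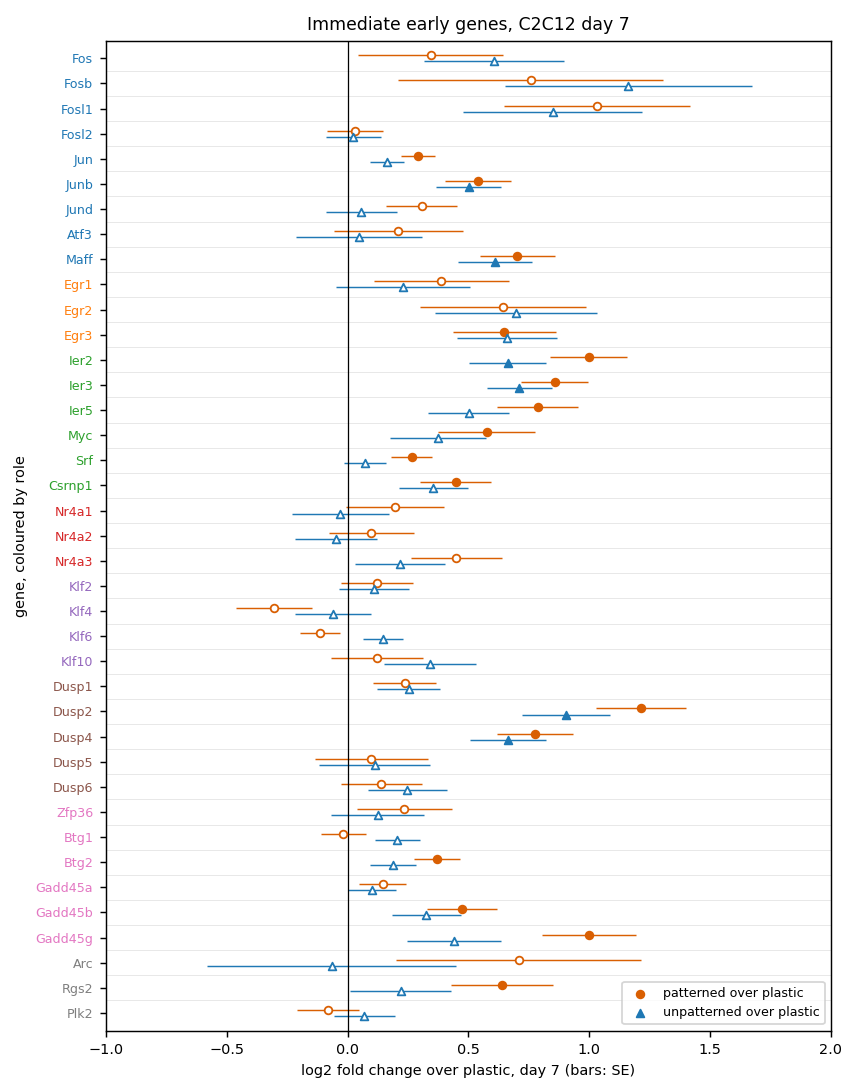
Log2 fold change over plastic at day 7 of each gene, with SE bars, for patterned (circles) and unpatterned gelatin (triangles); filled markers passed the test. Filled circles are all right of 0, between 0.27 for Srf and 1.22 for Dusp2, and the 4 Klf genes, none of them filled, lie between -0.30 and 0.12 for patterned and between -0.06 and 0.34 for unpatterned gelatin.

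The pattern itself, patterned over unpatterned gelatin, gave no member past the threshold on either day. At day 4 this was 0 of 39, with 0.00674% of all genes. At an unadjusted p under 0.05 by edgeR there were 19 members, with 1281 of all 14844 genes. DESeq2 with adjustment called 4, with 0.943% of all genes. The 4 were Egr2 (-1.58), Fosb (-1.59), Klf6 (-0.35) and Dusp6 (-0.67), all lower. Fosb was also the lowest of the panel by edgeR (-1.59 ± 0.44, adjusted p = 0.186) and Jun the highest (0.05), with the third unpatterned library among the data. Without that library edgeR called 0 as well, with 6 members and 936 of 15017 genes at an unadjusted p under 0.05. DESeq2 then called 1, Egr2, with 0.133% of all genes. At day 7 it was 0 of 39, with 0.546% of all genes (0.397% higher and 0.148% lower), 5 members at an unadjusted p under 0.05 and none by DESeq2. For that unadjusted p at day 7 the share of all genes is not given here. The panel then lay between -0.40 for Fosb and 0.33 for Ier2. Without patterned day 7 replicate 1, Gadd45g passed (0.73, adjusted p = 0.0375).

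Primary and C2C12 cultures differed in many members at every day. Of 39, 28 passed at day 0, 14 in each direction (71.8%, with 57.5% of all genes, 29.6% higher and 27.9% lower), 24 at day 4 on patterned gelatin, 7 higher and 17 lower in primary cells (61.5%, with 50.6%, 25.7% higher and 25% lower), and 26 at day 7, 7 higher and 19 lower (66.7%, with 51.5%, 25% higher and 26.4% lower). The cell type, the medium before differentiation and the use of mice against a clone differ together here and cannot be told apart.

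Within AP-1, Junb was lower and Atf3 higher in primary cells at all 3 days. Junb had 26.4, 18.3 and 12.6 CPM in primary cells and 147, 171 and 190.2 CPM in C2C12 at day 7, and the log2 fold change was -1.91 at day 0, -2.46 at day 4 and -3.15 ± 0.21, adjusted p = 1.5e-11 at day 7. Atf3 had 47.4, 36.6 and 55.1 CPM in primary cells and 5.07, 4.63 and 4.67 CPM in C2C12 at day 7, with 1.70, 3.42 and 3.27 ± 0.33, adjusted p = 1.46e-08 over the 3 days. No primary library of day 7 came within the C2C12 range in either gene. Fos was higher in primary cells at day 0 (1.70 ± 0.28, adjusted p = 1.2e-05) and day 7 (1.45 ± 0.28, adjusted p = 0.000109) but gave 0.09 at day 4, where it did not pass. Jun was lower at day 0 (-0.40), day 4 (-0.78) and day 7 (-1.06), and Jund at day 0 (-1.10) and day 7 (-0.80). Arc (1.57 at day 4 and 1.73 at day 7) and Csrnp1 were higher on both days, and at day 7 Fosb (1.67) and Nr4a3 (1.32) were higher too.

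Klf2, Ier2 and Ier5 were lower in primary cells throughout. Klf2 had 1.96, 1.99 and 1.47 CPM in primary cells and 9.06, 11.3 and 9.27 CPM in C2C12 at day 7, and gave -3.03, -3.04 and -2.45 at days 0, 4 and 7. Ier5 had 7.98, 6.14 and 6.83 CPM in primary cells and 37.6, 43.6 and 67.7 CPM in C2C12 at day 7 (-2.82 ± 0.19, adjusted p = 8.04e-12), and Ier2 gave -0.89, -1.60 and -2.51 ± 0.20, adjusted p = 1.87e-10. At day 0 the phosphatases Dusp6 (1.45 ± 0.20, adjusted p = 1.03e-06), Dusp2 (2.22 ± 0.30, adjusted p = 1.14e-06) and Dusp4 (1.05 ± 0.20, adjusted p = 7.19e-05), with Btg2 (1.29 ± 0.14, adjusted p = 1.72e-08) and Gadd45a (1.85 ± 0.34, adjusted p = 4.77e-05), were higher in primary cells, and Klf4 (-1.55 ± 0.16, adjusted p = 1.97e-08), Klf6 (-1.92 ± 0.21, adjusted p = 2.6e-08) and Egr3 (-3.05 ± 0.34, adjusted p = 4.75e-08) lower. By day 7 Dusp6 gave 0.37, Dusp2 0.00 and Dusp4 -0.17, none past the threshold, and Klf4 was higher in primary cells (0.46 ± 0.16, adjusted p = 0.0196).

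Other genes of the same pathways were counted from separate lists. These lists too were chosen with earlier results of these data known, so their counts are no independent evidence. Of 36 other growth factor- and stress-inducible early genes, 14 were higher and none lower on patterned gelatin over plastic at day 7, with a median of 0.28 (23.8% of all genes passed, 12.9% higher and 10.9% lower), led by the NF-kappaB inhibitor Nfkbia (0.76 ± 0.11, adjusted p = 0.000648), Phlda1 (0.83 ± 0.14, adjusted p = 0.00187) and Tnfaip3 (0.46 ± 0.08, adjusted p = 0.00214). On unpatterned gelatin over plastic at day 4, 14 were higher and 1 lower (7.89% of all genes passed), led by Tnfaip3 (0.65 ± 0.08, adjusted p = 0.000158), the kinase Sgk1 (0.61 ± 0.11, adjusted p = 0.00422) and the prostaglandin synthase Ptgs2 (1.46 ± 0.30, adjusted p = 0.00943), with the clock gene Per1 lower (-0.48 ± 0.13, adjusted p = 0.0339). Without unpatterned day 4 replicate 3 the count was 5 higher and 1 lower, with 1.75% of all genes. Tnfaip3 (0.57, adjusted p = 0.00112), Sgk1 (0.48, adjusted p = 0.0213) and Ptgs2 (0.79, adjusted p = 0.0424) were among the 5 by edgeR, and Per1 (-0.51, adjusted p = 0.0799) did not pass. Of 22 kinases of the ERK, p38 and JNK pathways and their Ets partners, 5 were higher and 6 lower on patterned gelatin over plastic at day 7, beside the same 12.9% and 10.9% of all genes.

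At day 4 over day 0, 20.2% of all genes were higher and 22.4% lower in primary cells, and 30.2% were higher and 27.7% lower in C2C12 on plastic. Beside these shares, feedback inhibitors of ERK signalling were 4 higher and 6 lower of 13 in primary cells (median -0.46) and 3 higher and 8 lower of 13 in C2C12 on plastic (median -0.38). Spry1, a Sprouty inhibitor of receptor kinase signalling, rose in primary cells (1.40 ± 0.17, adjusted p = 0.000349) and in C2C12 on plastic (2.09 ± 0.12, adjusted p = 1.35e-11), while Spry2 fell in primary cells (-1.94 ± 0.17, adjusted p = 7.22e-05). Of SRF coactivators and cytoskeletal SRF targets 1 was higher and 10 lower of 17 in primary cells (median -1.47), and 5 were higher and 10 lower of 18 in C2C12 on plastic (median -0.71). The adhesion protein zyxin (Zyx) fell in primary cells (-2.49 ± 0.15, adjusted p = 1.9e-05) and beta-actin (Actb) in C2C12 on plastic (-1.52 ± 0.08, adjusted p = 3.92e-12). At day 7 over day 4 on plastic 1 of the 18 was higher and 9 lower (median -0.35, with 6.47% of all genes higher and 8.37% lower), with Actb at -0.64 ± 0.08, adjusted p = 5.78e-05, and 7 of 18 had a positive interaction with patterned gelatin and none a negative one (6.24% of all genes positive and 5.5% negative), led by the actin-binding protein gene Tagln (1.00 ± 0.20, adjusted p = 0.0208).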

How the data were processed

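RNA was sequenced from 30 cultures, and the authors quantified transcripts with kallisto against mm10 (version and annotation not given in the sources used here). The deposited values are estimated counts per transcript and TPM, which kallisto derives from the counts and transcript lengths. Both were summed per gene with GENCODE M21 (GRCm38), leaving out 2167 of 88198 transcripts, or 0.723% to 0.893% of the counts per library, and the count sums were rounded. Library totals of 13.1 M to 59.4 M estimated counts set the precision, and the SE covers the spread between libraries.

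Counts were tested with edgeR 4.0.16 (TMM, filterByExpr, quasi-likelihood F test, SE as the fold change over the square root of F) in 3 fits, of 21 C2C12, 9 primary and all 30 libraries. P-values were adjusted by Benjamini-Hochberg over all genes tested, and every adjusted p in the text is from edgeR unless DESeq2 1.42.0 is named. There were 16 comparisons and 4 interaction tests. Values per library are TMM-normalised CPM. Other settings were DESeq2, its size factors in edgeR, no low-count filter, only the groups compared, limma 3.58.1 on log2(TPM + 1) and log2(TPM + 0.1), the replicate number as a block, and leaving out each library. Removing unpatterned day 4 replicate 3 from the shared fit, and from DESeq2, was chosen after seeing the data. For unadjusted p and for the other settings, shares of all genes are given only in comparisons with the unpatterned day 4 group. Elsewhere such counts of members stand without that share. The fits were tested on simulated data with the same spread for every gene and no outlying or paired libraries. That spread was below the common value of the primary fit, so the simulation does not cover primary cultures. R 4.3.3, Python 3.11.15, pandas 2.3.3 and matplotlib 3.10.9 were used.

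The members and lists were chosen with earlier results of these data known. Named in each comparison were the called members, up to 8 per direction by adjusted p, a panel of 12 genes (Fos, Fosb, Fosl1, Fosl2, Jun, Junb, Jund, Egr1, Ier2, Atf3, Myc and Srf, by range where few passed), and up to 3 genes per direction of other lists. Other names, such as Egr1 in the primary day 7 libraries and the genes of single libraries, were chosen after their values were seen. Same-numbered primary libraries deviated together from their group means (9 pairs, correlations 0.206 to 0.778), so the numbers were taken to pair them. Those of C2C12 did not (63 pairs, -0.187 to 0.224).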

Additional observations from a re-analysis of the deposited data

Results flagged for a closer look

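Of the 4 interaction tests, 2 passed for some members, so that the size of a change differed between 2 settings by a test of the difference itself. The change at day 7 over day 4 was more positive on patterned gelatin than on plastic, in log2 units, by 1.24 for Gadd45g, 1.05 for Ier2, 1.03 for Egr3, 0.85 for Klf2, 0.84 for Ier5, 0.78 for Ier3, 0.74 for Jund, 0.62 for Junb, 0.45 for Srf and 0.33 for Jun, with adjusted p between 0.0228 and 0.0449 by edgeR. All 10 are positive, and each passed by a narrow margin. Of 12 fits that each left out 1 library, Ier2 and Gadd45g kept the call in 9, Klf2 in 7 and Ier3 in 6. Srf and Egr3 kept it in 4, Ier5 in 3, Jund in 2, and Jun and Junb in 1 each.

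The change at day 4 over day 0 differed between primary cells and patterned C2C12 for 18 members. It was more positive in primary cells by 1.72 for Atf3, 1.54 for Klf4, 1.47 for Egr3, 0.79 for Jund and 0.59 for Csrnp1. It was more negative in primary cells, at -2.32 for Nr4a1, -1.66 for Klf10, -1.61 for Fos, -1.31 for Dusp2, -1.25 for Gadd45g, -1.20 for Gadd45b, -1.05 for Maff, -0.88 for Dusp6, -0.86 for Myc, -0.74 for Plk2, -0.69 for Ier5, -0.65 for Btg2 and -0.38 for Jun. The adjusted p lay between 2.57e-05 and 0.0473 by edgeR.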

How the results depend on the processing

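Over the 16 comparisons and 4 interactions, 254 member values passed the threshold. DESeq2 lost 2 of them, its size factors in edgeR 6, no low-count filter 19, the fit on only the groups compared 63, and leaving out 1 library 431 of 1692. On log2(TPM + 1) 63 lost the threshold and 1 changed sign, and on log2(TPM + 0.1) 61 and 1. That 1 was Rgs2 at plastic day 7 over day 4, -0.73 on counts, 0.13 on log2(TPM + 1) and 0.21 on log2(TPM + 0.1). TPM values shift the median of all genes, at day 4 on plastic over day 0 to -0.15, at plastic day 7 over day 4 to 0.16 and in the interaction of patterned gelatin with plastic to -0.16 on log2(TPM + 1). The causes were not tested.

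Counts of members past the threshold moved by more than 1.5 times as follows. On log2(TPM + 1) there were 5 at plastic day 7 over day 4, 3 on unpatterned and 7 on patterned gelatin, 9 for patterned and 1 for unpatterned gelatin over plastic at day 7, and 2 for the patterned interaction. On log2(TPM + 0.1) the count was 5 on plastic, 2 on unpatterned and 7 on patterned gelatin at day 7 over day 4, 9 for patterned and 2 for unpatterned gelatin over plastic at day 7, and 2 for the patterned interaction. With only the groups compared there were 5 on unpatterned and 1 on patterned gelatin at day 7 over day 4, 15 for patterned over plastic at day 4, 0 for patterned and 2 for unpatterned over plastic at day 7, and 5 for the patterned interaction. DESeq2 gave 4 for patterned over unpatterned at day 4, 1 for primary day 7 over day 4 and 3 for its interaction with cell type. DESeq2 without unpatterned day 4 replicate 3 gave 4 for unpatterned day 7 over day 4, 5 for unpatterned over plastic at day 4 and 1 for patterned over unpatterned at day 4.

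Leaving out 1 library gave 21 to 24 members at day 4 over day 0 on patterned gelatin, 20 to 22 on plastic and 17 to 21 in primary cells. At day 7 over day 4 it gave 2 to 14 on patterned gelatin, 2 to 11 on unpatterned gelatin, 5 to 12 on plastic and 0 in primary cells. Between substrates at day 4 it gave 0 to 2 for patterned over plastic, 0 to 13 for unpatterned over plastic and 0 for patterned over unpatterned. At day 7 it gave 10 to 17 for patterned over plastic, 2 to 6 for unpatterned over plastic and 0 to 1 for patterned over unpatterned. For primary over C2C12 it gave 26 to 29 at day 0, 20 to 24 at day 4 and 24 to 26 at day 7. The interactions gave 0 to 14 for patterned gelatin, 0 for unpatterned gelatin, 13 to 18 for cell type at day 4 and 0 to 5 for cell type at day 7.

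With the replicate block, 26 members passed at day 4 over day 0 in primary cells, against 22 without it, and 17 for patterned over plastic at day 7, against 16, with Fosl1 added (1.08, adjusted p = 0.0408 by edgeR). The replicate block lost 6 of the 254 calls and moved no other count by more than 2. In the fit of all 30 libraries, the block gave C2C12 and primary libraries of the same number a shared effect. The pairing of primary libraries alone was thus not modelled in comparisons and interactions between cell types. In C2C12 the numbers pair no libraries: 7 of 21 libraries correlated best with their own number, and in primary cells 8 of 9. Without unpatterned day 4 replicate 3 in the shared fit there were 28 members at day 4 over day 0 on each substrate, 19 at plastic day 7 over day 4, 9 for unpatterned over plastic at day 7 and 12 for the patterned interaction. The low totals of Fosb, Arc and Rgs2 limit their precision.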
